A study of Homo sapiens with 6 samples.

Results

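The genes described here are those of the Nodal, bone morphogenetic protein (BMP) and TGF-beta pathway, with the BMP antagonist CHRDL1. These genes were read in human embryonic stem cells treated to deplete alpha satellite RNA. They were taken by gene symbol from the deposited count table: 45 symbols were listed, and 44 of them had a row among the 53719 rows of the table. The symbol CER1L had no row. The list was selected on the counts of the knockdown and control libraries themselves: CHRDL1 heads it because it was higher after knockdown. Differences of the members between the groups are therefore given as a description. No member's p-value is printed, and counts of members past a threshold stand beside the share over all genes and support nothing.

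TGF-beta family ligands are secreted dimers that bring together type I and type II receptor kinases. Nodal, activins and TGF-betas signal through SMAD2 and SMAD3, and BMPs through SMAD1 and SMAD5, each with the shared partner SMAD4, while secreted antagonists, decoy receptors and inhibitory SMADs hold the signal back. In human pluripotent cells, Nodal and activin signalling maintains the undifferentiated state and switches on its own inhibitors, the LEFTY genes, whereas BMP signalling favours extraembryonic and mesodermal fates and induces the ID genes.

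The cells were H9, an established human embryonic stem cell line, grown in RSeT, a culture medium sold for keeping cells in a naive-like state. Both groups received a gapmer, an antisense oligonucleotide whose target RNA is cleaved by RNase H, and RNA was taken after 48 h. The control group received a control gapmer (3 libraries, a, b and c) and the knockdown group a single gapmer targeting ALR, the alpha satellite repeats of centromeres (3 libraries, also a, b and c). All 6 libraries come from the same line, and nothing in the labels says whether the libraries of a group came from separate cultures, so p-values measure only the spread between these libraries. The comparison asks what loss of this repeat RNA does to gene expression. With a single targeting gapmer, effects of that loss cannot be told apart from other effects of the oligonucleotide. No row for alpha satellite RNA was analysed here, so the depletion itself was not checked here.

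Total counts ran from 25087629 to 36576752 per library. Knockdown library a stood apart, with a count in 29678 rows against 25898 to 26788 in the others. The pluripotency genes NANOG, LIN28A and DNMT3B had control means of 180.5, 1539 and 1905 CPM (counts scaled to a common library total, with TMM factors that correct for the composition of a library). Control means of the 10 naive-state markers ran from 0.0765 CPM for KLF17 to 27.0 CPM for TFCP2L1. Of the 8 primed-state markers 7 had a row, from THY1, listed at 0, to SALL2 at 114.4 CPM. Trophectoderm and amnion markers summed to 2.89 to 4.19 CPM over the 6 libraries, and CDX2 and SOX17 had at most 3 and 4 counts in a library. In bulk RNA, fewer cells of a type and less RNA per cell cannot be told apart.

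Of the 44 members with a row, 41 had a count in some library and 39 had enough counts to be tested. CHRD, INHBA and TGFB3, which encode the BMP antagonist chordin, the activin A subunit and a TGF-beta ligand, were listed at 0 in all 6 libraries. SOX2 and PRDX2, genes that stem cells and nearly all cells use, were listed at 0 as well, so these zeros cannot be read as absence of the transcript. How the zeros arose was not tested. NOG (noggin, a BMP antagonist) had 2 to 9 counts and INHBB (an activin subunit) 0 to 5, too few to test.

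Across the 39 tested members, fold changes were small. The BMP-induced gene ID3 had the highest value, followed by the antagonists GREM1, at few counts, and CHRDL1, the ligand BMP4, ID1, the ligand GDF3 and the antagonist LEFTY2. The type II receptor ACVR2A had the lowest. Differences between roles were not tested. By edgeR's quasi-likelihood test with Benjamini-Hochberg adjustment over all 19721 genes tested, 1 member passed the threshold of 0.05, CHRDL1, the gene chosen for being higher. Over all genes, 0.786% passed, 0.137% as higher and 0.649% as lower (27 and 128 genes). That split moved with the scaling, to 45 and 112 with upper-quartile scaling and 52 and 100 with library size alone. Of the other 38 tested members, 0 passed. An unadjusted p under 0.05 was reached by 5 of them (13.2%, 4 higher and 1 lower), near the 14.2% of all genes tested. DESeq2's Wald test passed 1 of them (ID3, where 37 members had an adjusted p), beside 3.33% of all genes with an adjusted p. Limma-voom passed 0 of them, beside 0.882% of all genes. Member calls depended on single libraries: 5 members passed without knockdown library c (CHRDL1, ID1, ACVR2A, BMPR1A and BMPR1B), and 0 without knockdown library b or any 1 control. The share of all genes called moved with them, to 6.40% without knockdown library c and to between 0.127% and 0.321% in the other 4 fits. The median log2 fold change, knockdown minus control, was 0.04 over the 39 members and 0.02 over all genes tested.

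The values of the 3 knockdown and the 3 control libraries did not overlap in 9 members, and 18.9% of all genes tested had such separate groups. In 6 of the 39 (15.4%) all knockdown libraries were the higher, beside 9.55% of all genes, and in 3 (7.69%) all were the lower, beside 9.36%. Since the list was selected on this contrast, nothing is read from these shares. Those with higher knockdown values were CHRDL1, ID3, ID1, LEFTY2, GDF3 and BMP4, and those with lower values were ACVR2A, FST and SMAD1.

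**Figure D1:**
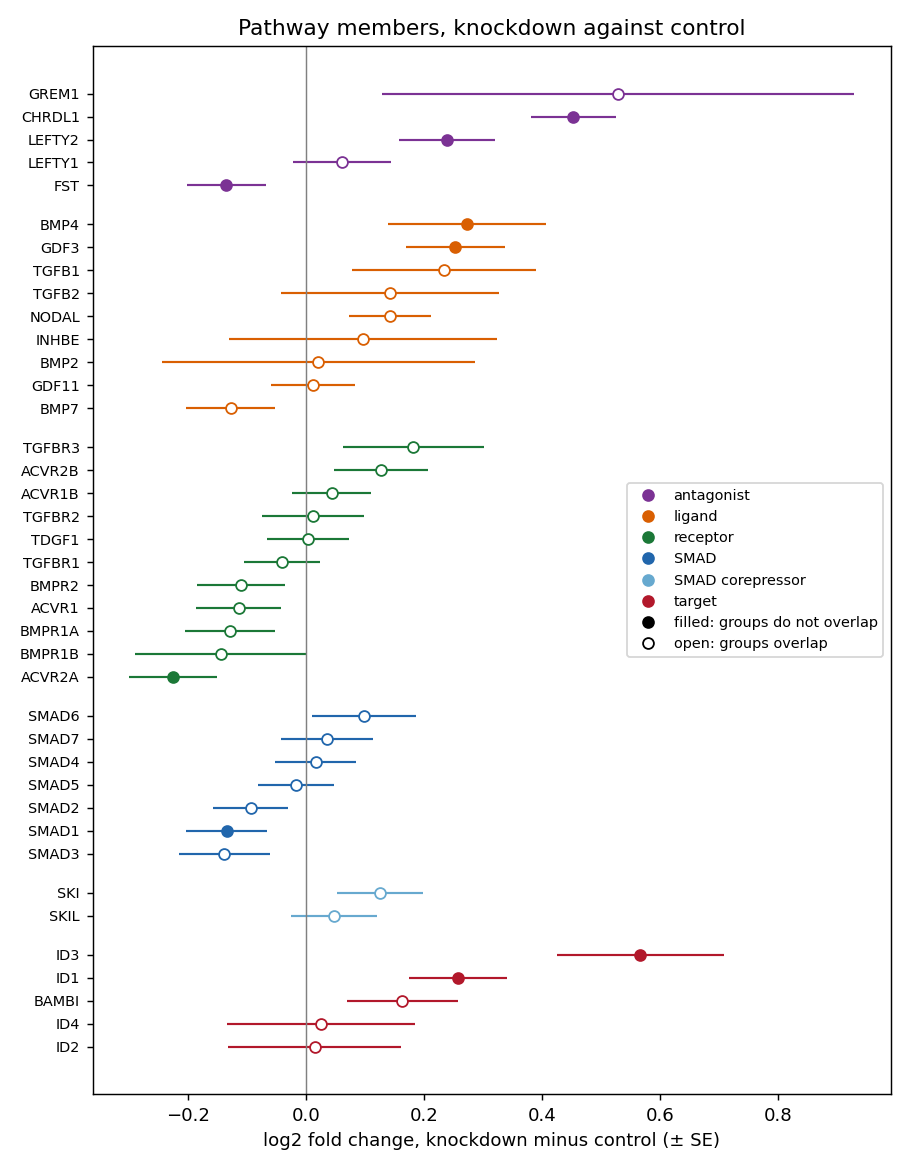
Log2 fold change (knockdown minus control, x axis) of the 39 tested members by role, with bars for the SE. Filled points mark the 9 members whose groups do not overlap. Values run from -0.23 for ACVR2A to 0.57 for ID3, with 4 of 5 antagonists, 8 of 9 ligands and 5 of 5 targets above 0 and 6 of 11 receptors below 0; with the span trend removed, 3 ligands, 2 targets and 8 receptors lie below 0.

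CHRDL1 encodes chordin-like 1, a secreted protein with cysteine-rich repeats that binds BMPs. The gene (ENSG00000101938.14) lies on the minus strand at chrX:110673856-110795819 (GRCh38, 121964 bases), and no other annotated gene overlaps it. Its level was 35.0, 34.8 and 32.5 CPM after knockdown (libraries a, b and c, the order kept below) and 23.9, 25.5 and 25.4 CPM in the controls. The lowest knockdown library thus lay above the highest control, and libraries within a group differed little. The group means of 34.1 ± 1.36 and 24.9 ± 0.909 CPM (SD, n = 3 each) gave a ratio of 1.37 and a log2 fold change of 0.45 ± 0.07 (SE), resting on 679 to 1161 counts per library. It was 0.43 without knockdown library a, 0.44 without b and 0.47 without c. Removing the trend of expression on gene span left it at 0.46.

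The promoter of CHRDL1 is shown with those of GDF3 and ID1, whose groups also separated, and of the inhibitory SMAD6, the member window that holds the palindromic SMAD motif. Each is the 250 bases before the RefSeq start on the gene's own strand (GRCh38.p14), written 5′ to 3′. Capitals mark the SMAD and FOXH1 motifs named after them, sought on both strands; a sequence with no capitals held none.
CHRDL1 (chrX:110795818-110796067, minus strand): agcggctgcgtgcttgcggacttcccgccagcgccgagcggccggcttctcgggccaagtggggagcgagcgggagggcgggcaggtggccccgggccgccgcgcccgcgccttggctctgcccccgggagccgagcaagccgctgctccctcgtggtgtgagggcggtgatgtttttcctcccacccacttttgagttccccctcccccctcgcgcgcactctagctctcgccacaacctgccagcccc
GDF3 (chr12:7695776-7696025, minus strand): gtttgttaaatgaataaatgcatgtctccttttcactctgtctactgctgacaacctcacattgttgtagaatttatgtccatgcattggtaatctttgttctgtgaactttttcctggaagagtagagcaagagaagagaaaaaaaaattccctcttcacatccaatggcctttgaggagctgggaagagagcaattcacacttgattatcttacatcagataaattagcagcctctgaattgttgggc
ID1 (chr20:31605039-31605288, plus strand): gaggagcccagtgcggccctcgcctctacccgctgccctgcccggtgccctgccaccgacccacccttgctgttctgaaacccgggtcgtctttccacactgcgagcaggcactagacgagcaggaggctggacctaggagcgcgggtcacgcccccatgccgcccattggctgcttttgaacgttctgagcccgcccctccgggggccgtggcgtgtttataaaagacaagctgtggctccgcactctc
SMAD6 (chr15:66701986-66702235, plus strand): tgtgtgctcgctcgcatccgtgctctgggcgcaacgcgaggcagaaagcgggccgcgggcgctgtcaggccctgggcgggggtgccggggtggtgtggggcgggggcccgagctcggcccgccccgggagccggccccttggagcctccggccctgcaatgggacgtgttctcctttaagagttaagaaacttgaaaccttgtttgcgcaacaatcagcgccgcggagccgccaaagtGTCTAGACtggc

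These windows differ in base composition: that of CHRDL1 was 73.2% G and C with 27 CG dinucleotides, and that of GDF3 was 38.4% with 0. Promoters of 36 members were in the RefSeq table. The GC-rich SMAD motif GGCGCC was in 12 of the 36 (33.3%), compared with 16.4% of all 35116 promoter windows of this length. The motif consists of G and C only, and the GC content of member windows ran from 38.4% to 89.6%. BAMBI held 3 copies and ACVR1B held 4. The SMAD core CAGAC was in 13 (36.1%), compared with 38% of all windows, with 1 copy in ID3. The palindrome GTCTAGAC, which does not contain CAGAC on either strand, was in the SMAD6 window alone (2.78% of members, 0.182% of all windows). The FOXH1 motifs AATCCACA and AATACACA were in 0 of the 36 member windows and in 0.709% and 0.666% of all windows. The windows of CHRDL1, GDF3 and ID1 held none of these motifs, and sequence outside the windows was not searched. NOG, LEFTY1, LEFTY2, TDGF1, INHBE, BMP2, BMP7 and SKI had no entry.

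Among the other extracellular antagonists, LEFTY2 was higher in the knockdown libraries and follistatin lower. LEFTY2 (chr1:225936598-225941489), a feedback inhibitor of Nodal, had 1109, 1286 and 1097 CPM after knockdown and 1052, 986 and 922 CPM in the controls. All 3 knockdown values lay above the controls, with knockdown library b far above the rest. Means of 1164 ± 105.5 and 987 ± 64.9 CPM (SD, n = 3 each) gave a log2 fold change of 0.24 ± 0.08 (SE). It was 0.16 without knockdown library b and 0.12 with the GC trend removed. Its neighbour LEFTY1, a near-identical gene on chromosome 1, had 227, 235 and 192 CPM against 198, 220 and 210 CPM, with overlapping groups and a log2 fold change of 0.06 ± 0.08, which turned to -0.06 with the GC trend removed. The ratio of LEFTY2 to LEFTY1 ran from 4.88 to 5.73 in knockdown and from 4.39 to 5.33 in control libraries, ranges that overlapped. Because reads of the 2 genes can be hard to assign, their split is uncertain, and their sum was 1382 ± 122.5 CPM in knockdown and 1196 ± 59.3 CPM in control libraries. LEFTY2 and LEFTY1 also each overlap an annotated gene on the same strand (AL117348.1 and AL117348.2).

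FST (chr5:53480409-53487134) encodes follistatin, which binds activins and keeps them from their receptors. It had 45.3, 42.5 and 41.6 CPM in knockdown and 48.0, 48.6 and 45.5 CPM in control libraries, so that the groups were separate by a narrow margin. Its log2 fold change was -0.14 ± 0.07 (SE). GREM1 (gremlin, a BMP antagonist) had 16 to 26 counts in knockdown and 14 to 21 in control libraries, and its log2 fold change of 0.53 ± 0.40 had the largest SE of all tested members. Cerberus, another Nodal and BMP antagonist, is listed in the table as CER1, which was no member. Its mean was 160.0 ± 14.2 CPM after knockdown and 150.4 ± 1.89 CPM in the controls (log2 fold change 0.09 ± 0.07).

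Of the 9 tested ligands, 1 had a value below 0, and over the alternatives 1 to 3 did. None (0) passed the test, and the median log2 fold change was 0.14. BMP4 (chr14:53949736-53958761), a BMP ligand, had 6.51, 6.65 and 6.32 CPM in knockdown and 6.04, 4.89 and 5.22 CPM in control libraries. The groups were separate, with control library a close to the knockdown values, and the log2 fold change was 0.27 ± 0.13 (SE) on 152 to 222 counts. GDF3 (chr12:7689782-7695776), a Nodal-related ligand of pluripotent cells, had 31.2, 34.2 and 28.4 CPM against 25.3, 25.9 and 27.6 CPM, and its log2 fold change was 0.25 ± 0.08. Again knockdown library b was the highest, and without it the value was 0.18. NODAL itself, the ligand with the highest level per length, had 105, 112 and 106 CPM in knockdown and 106, 92.0 and 94.8 CPM in control libraries. Control library a reached the knockdown values, and the log2 fold change was 0.14 ± 0.07, or 0.06 with the GC trend removed.

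BMP7, a BMP ligand, was the only tested ligand below 0, at -0.13 ± 0.08, with 36.8 to 42.9 CPM in knockdown and 41.6 to 45.7 CPM in control libraries. TGFB1 (0.23 ± 0.16), TGFB2 (0.14 ± 0.19), the inhibin subunit gene INHBE (0.10 ± 0.23) and BMP2 (0.02 ± 0.27) had low counts, wide errors and overlapping groups. GDF11, an activin-like ligand, was at 0.01 ± 0.07.

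Of the 11 tested receptor genes, 6 lay below 0 and 5 above, with 6 to 8 below 0 over the alternatives, and 0 passed. Their median log2 fold change was -0.04. ACVR2A (chr2:147844517-147930826), a type II receptor for activins and Nodal, had 42.4, 42.0 and 48.4 CPM in knockdown and 53.5, 49.6 and 52.1 CPM in control libraries. Every knockdown library lay below every control, with knockdown library c nearest to them. The log2 fold change was -0.23 ± 0.07 (SE), the lowest of the members, and without knockdown library c it was -0.31. The gene overlaps ORC4 on the other strand, and because the strand setting of the counting is not given, reads of such pairs cannot be told apart. The other activin type II receptor, ACVR2B, had a value of the opposite sign, 0.13 ± 0.08, with overlapping groups. The difference between these receptors was not tested.

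The 3 BMP receptor genes BMPR1A, BMPR1B and BMPR2 had log2 fold changes of -0.13 ± 0.08, -0.14 ± 0.14 and -0.11 ± 0.07. Their summed level was 498, 495 and 581 CPM after knockdown and 558, 589 and 567 CPM in the controls. Knockdown libraries a and b lay below all controls, whereas library c lay among them. BMPR1B had 23.3 and 20.6 CPM in knockdown libraries a and b, 33.7 CPM in c and 27.3 to 30.7 CPM in the controls, so its value rested on single libraries. It was -0.40 without knockdown library c and -0.004 without b. ACVR1, a type I receptor for BMPs and activins, was at -0.11 ± 0.07. TDGF1 (CRIPTO), the Nodal co-receptor and the receptor-role gene with the highest level, had 563, 576 and 508 CPM against 563, 537 and 542 CPM. Its groups overlapped fully, with a log2 fold change of 0.004 ± 0.07. TDGF1 has a close copy, TDGF1P3, with a row of its own at 85.1 ± 8.60 CPM in the controls, so their reads may be split. The remaining receptor genes lay at -0.04 ± 0.06 for TGFBR1, 0.01 ± 0.09 for TGFBR2, 0.04 ± 0.07 for ACVR1B and 0.18 ± 0.12 for TGFBR3, the betaglycan co-receptor.

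Among the SMADs, the 4 receptor-regulated members had values below 0, except that SMAD5 was above 0 in 4 of 16 alternatives, at most at 0.03. SMAD9, another receptor-regulated SMAD but no member, was at 0.35 ± 0.20. It had 3.06, 2.90 and 3.08 CPM in knockdown and 2.35, 2.73 and 2.01 CPM in control libraries. SMAD1 (chr4:145481194-145558079), a carrier of the BMP signal, had 36.0, 40.1 and 37.4 CPM in knockdown and 41.2, 42.0 and 41.4 CPM in control libraries. The controls were tightly grouped and above every knockdown library, and the log2 fold change was -0.13 ± 0.07 (SE). Antisense genes (SMAD1-AS1 and SMAD1-AS2) overlap it. SMAD3, a carrier of the Nodal and activin signal, had 198, 211 and 235 CPM against 246, 221 and 241 CPM. Knockdown library c fell among the controls, and the log2 fold change was -0.14 ± 0.08. SMAD2, its close relative, was at -0.09 ± 0.06, and SMAD5 at -0.02 ± 0.06. The shared SMAD4 (0.02 ± 0.07) and the inhibitory SMAD6 (0.10 ± 0.09) and SMAD7 (0.04 ± 0.08) lay at or above 0 with overlapping groups. With the GC trend removed, the inhibitory pair turned to -0.01 and -0.08.

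The SMAD corepressors SKI and SKIL, which block transcription by SMAD complexes, had log2 fold changes of 0.13 ± 0.07 and 0.05 ± 0.07. SKIL, at 510, 528 and 464 CPM in knockdown and 462, 511 and 481 CPM in control libraries, was among the members with the highest levels. Its groups overlapped. SKI ran from 157 to 186 CPM in knockdown and from 151 to 163 CPM in control libraries.

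The ID genes encode inhibitors of DNA binding, which BMP signalling induces, and ID1 and ID3 had higher values in the knockdown libraries while ID2 and ID4 did not. ID3 (chr1:23557918-23559794) had 10.1, 12.3 and 11.2 CPM in knockdown and 9.07, 7.46 and 6.30 CPM in control libraries. The groups were separate, although the controls differed from each other by more than the gap between the groups. With means of 11.2 ± 1.10 and 7.61 ± 1.39 CPM (SD, n = 3 each) and 229 to 412 counts, its log2 fold change of 0.57 ± 0.14 (SE) was the highest of the members. Over the 16 alternatives it ran from 0.44 to 0.72.

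ID1 (chr20:31605283-31606515) had 55.3, 63.4 and 50.9 CPM in knockdown and 49.3, 47.1 and 45.6 CPM in control libraries. Knockdown library b was again the highest and library c just above the controls. The log2 fold change was 0.26 ± 0.08 (SE), 0.16 without knockdown library b and 0.15 with the GC trend removed. ID2 (0.02 ± 0.15) and ID4 (0.03 ± 0.16) had overlapping groups at 3.56 to 6.33 CPM and changed sign when the span trend was removed. BAMBI, a decoy receptor induced by BMP and TGF-beta signalling, had 19.1 to 22.7 CPM in knockdown and 17.1 to 19.96 CPM in the controls, with a log2 fold change of 0.16 ± 0.09. The 4 ID genes together summed to 77.3 ± 6.95 CPM in knockdown and 64.3 ± 4.20 CPM in control libraries, a sum that consists mostly of ID1.

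**Figure D2:**
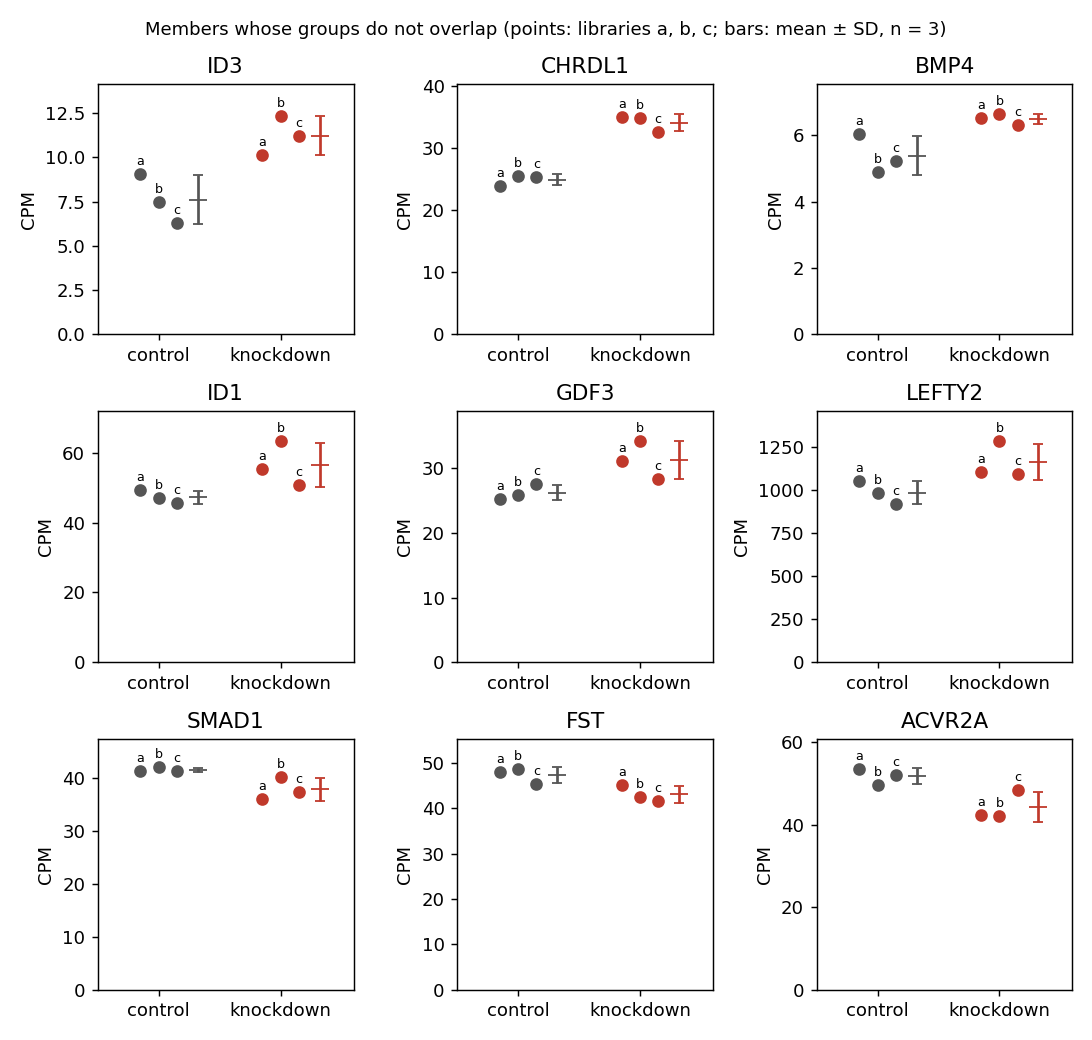
TMM-scaled CPM (y axis, from 0) of the 9 members whose groups do not overlap, with a point for each library and bars for mean ± SD (n = 3). CHRDL1 has tight groups at 32.5 to 35.0 and 23.9 to 25.5 CPM. In ID1, GDF3 and LEFTY2, knockdown library b is above the other knockdown libraries.

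Knockdown library b had the highest value of the 6 libraries in 17 of the 39 tested members, and in 24.2% of all tested genes. Control library c had the lowest value in 10 members and control library a in 9, beside 15.9% and 15.4% of all tested genes. The pluripotency marker list, which also holds the member TDGF1, summed to 6026 to 6618 CPM after knockdown and 5902 to 5979 CPM in the controls. That sum was mostly LIN28A and DNMT3B, with control means of 1539 and 1905 CPM. Of the 9 listed genes, 8 were tested and SOX2 was listed at 0. Among the 8, POU5F1, LIN28A and DNMT3B had separate groups with higher knockdown values, and LIN28B and DPPA4 with lower ones. Over all genes tested, 9.55% had separate groups with higher knockdown values and 9.36% with lower ones. Knockdown library b had the highest POU5F1 value, 152 CPM. Mesoderm markers (3 of 7 tested) summed to 14.3 to 16.2 CPM in knockdown and 11.7 to 14.1 CPM in control libraries. That sum was mostly MIXL1 (12.5 to 14.1 and 9.93 to 12.1 CPM), which is also on the list of Nodal targets. Endoderm markers (3 of 5 tested) summed to 8.22 to 10.2 and 6.93 to 8.19 CPM, mostly CXCR4 (5.85 to 6.83 and 5.14 to 5.76 CPM). Of the 3 tested endoderm genes, 2 lay above 0 and FOXA2 below (log2 fold change -0.11 ± 0.34). The sums of the remaining marker lists overlapped between the groups (knockdown, then control). They were 354 to 402 and 303 to 355 CPM for ectoderm, and 353 to 395 and 340 to 370 CPM for primed-state markers. Naive-state markers summed to 74.3 to 82.7 and 74.9 to 80.2 CPM, and trophectoderm and amnion markers to 3.28 to 4.19 and 2.89 to 3.54 CPM. Fibroblast markers leaned lower, at 86.6 to 96.2 and 90.5 to 103.9 CPM. The part of these marker groups in the values of the members was not tested.

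Levels were compared between genes as CPM per kilobase of exon in the controls. LEFTY2 was the most abundant at 430.3 ± 28.3 (SD, n = 3), followed by TDGF1 (213.6 ± 5.29), LEFTY1 (128.6 ± 6.89), SKIL (67.1 ± 3.46), NODAL (58.6 ± 4.47) and ID1 (38.4 ± 1.52), and the ranges of these 6 did not overlap. ACVR1 (33.2), SMAD3 (32.6) and BMPR1A (32.5) could not be ordered, since the ranges of neighbours overlapped. CHRDL1 had 6.35 ± 0.232 and was 25th of the 39, with a range that overlapped those of TGFBR2 above it and GDF11 below it. BMP4 (2.56 ± 0.282), BMP2 (0.471 ± 0.0935) and GREM1 (0.0366 ± 0.0125) were near the bottom. Over the whole order, 16 of the 38 pairs of neighbours had overlapping ranges. The order depends on the transcripts assumed: with the median length of the coding transcripts in place of the exon union, SMAD3 had 154.3, SMAD7 79.4 in place of 22.4, and SMAD2 28.5 in place of 8.43, while LEFTY2 and TDGF1 kept their places.

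**Figure D3:**
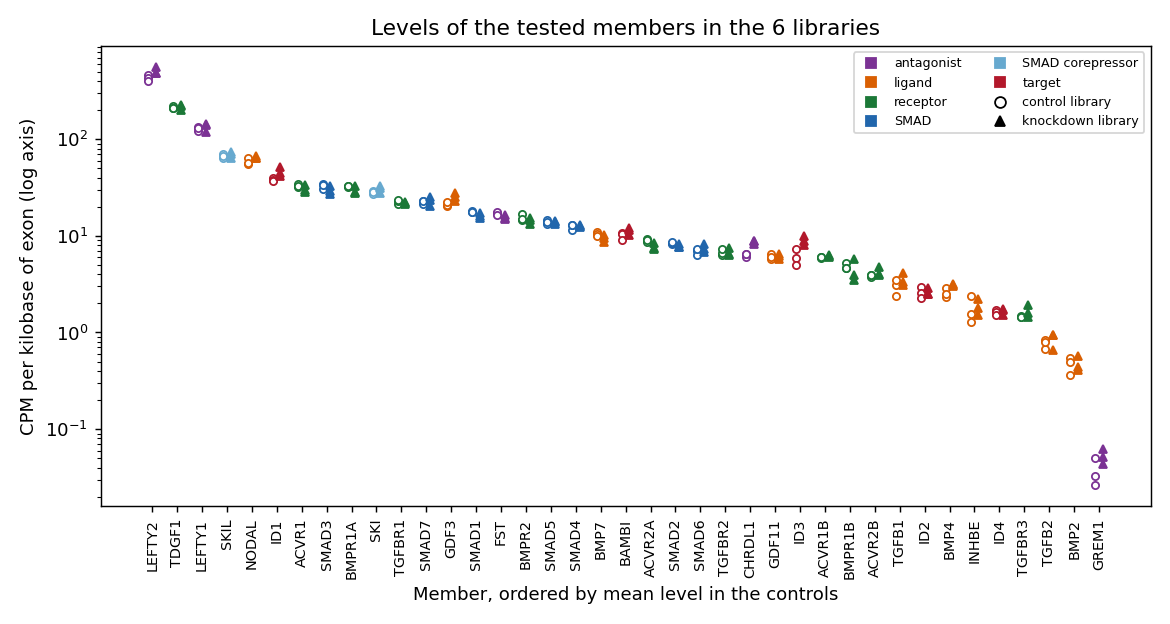
CPM per kilobase of exon (log y axis) of the 39 tested members in each library, ordered by their mean in the controls. Open circles are control and filled triangles knockdown libraries, coloured by role. Levels span from 430.3 for LEFTY2 to 0.0366 for GREM1, and the difference between the groups is small beside the differences between genes.

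A further 91 symbols of the pathway that were not members were read in the same fit, of which 86 had a row and 72 were tested. Of these, 1 passed as lower and 0 as higher, and 7 in each direction had an unadjusted p under 0.05 (19.4%, beside 14.2% of all genes tested). The median log2 fold change was 0.02. The gene that passed was TLL2, a tolloid-like protease. It fell from 17.2 ± 0.533 CPM in the controls to 12.8 ± 0.518 CPM after knockdown (SD, n = 3 each; log2 fold change -0.42 ± 0.09; edgeR adjusted p = 0.0488). All 3 knockdown values (13.1, 12.2 and 13.1 CPM) lay below the controls (17.8, 16.8 and 17.0 CPM). The call was close to the threshold and held in 8 of 16 alternatives, with edgeR, DESeq2 or limma adjusted p from 0.00759 to 0.214. It was lost without knockdown library a or b and without any 1 control.

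Further targets of the pathway were counted as well. Of 27 tested genes, 0 passed edgeR's adjusted threshold or limma-voom, 0 passed DESeq2's Wald test, and 8 (29.6%) had an unadjusted p under 0.05 (5 higher, 3 lower), beside 14.2% of all genes tested. The median log2 fold change was 0.09. Those with the smallest p were TAGLN, a smooth muscle actin-binding protein gene (log2 fold change 0.37 ± 0.12; edgeR adjusted p = 0.190), TGFBI, a TGF-beta-induced matrix protein gene (0.53 ± 0.18; edgeR adjusted p = 0.200), and HEY1, a transcriptional repressor gene (0.50 ± 0.17; edgeR adjusted p = 0.226). NANOG, a Nodal and activin target, was at 0.10 ± 0.07 with overlapping groups. GSC and LHX1, classical Nodal targets of the early embryo, had 1 to 11 and 3 to 10 counts per library and were not tested.

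Among 42 tested markers of pluripotency, naive and primed state and other cell types, 0 passed edgeR's adjusted threshold or limma-voom. DESeq2's Wald test passed 1, POU5F1, beside 3.33% of all genes with an adjusted p. An unadjusted p under 0.05 was reached by 8 (5 higher, 3 lower), or 19% beside 14.2% of all genes tested. Those with the smallest p were the core pluripotency factor POU5F1 (log2 fold change 0.42 ± 0.10; edgeR adjusted p = 0.0945), DNMT3L (-0.72 ± 0.27; edgeR adjusted p = 0.258) and LIN28B (-0.16 ± 0.06; edgeR adjusted p = 0.266). POU5F1 has processed copies, so its count is uncertain. The marker and target lists share genes, among them NANOG, MIXL1, EOMES and COL1A2, so their shares are not separate readings. EOMES and COL1A2 are among the genes with an unadjusted p under 0.05 in both lists. The target list also shares SMAD9, ZNF423 and LTBP3 with the other pathway genes.

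Members differed in gene span as well as in role. The tested receptor genes had a median span of 87.6 kb and the SMAD genes 76.9 kb, against 3.30 kb for the targets and 14.0 kb for the ligands. Across the 39 members, log2 fold change and log10 span had a Pearson r of -0.44 and a Spearman rho of -0.46, and across 15972 tested genes with a span -0.08 and -0.17, given as descriptions since genes of the same libraries are not independent. With each library's trend on span removed, ID3 was at 0.50, ID1 at 0.20, LEFTY2 at 0.17 and ACVR2A at -0.24, so that these kept their direction. CHRDL1, with a span of 122 kb, was then at 0.46, and SMAD2, with nearly the same span, at -0.09.

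**Figure D4:**
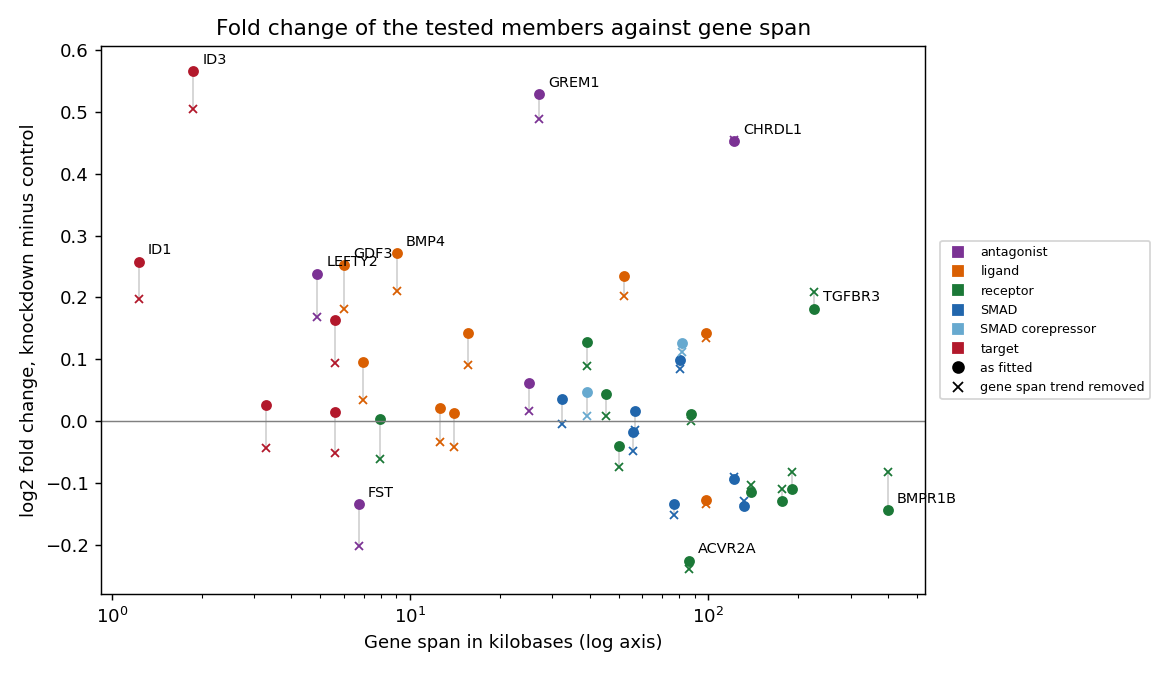
Log2 fold change of the 39 tested members (y axis) against gene span (log x axis, kilobases), as fitted (circles) and with the span trend removed (crosses), coloured by role. The target genes, the shortest, lie above 0 as fitted, with ID2 and ID4 below 0 once the trend is removed, and CHRDL1 stands at 0.45 and 122 kb.

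Of the 39 tested members, 25 kept the sign of their log2 fold change in all alternatives that gave a value, 15 above 0 and 10 below, and 14 changed sign in at least 1. The 9 members with separate groups were all among the 25. CHRDL1 ran from 0.43 to 0.48. It was chosen for being higher in these same libraries, so nothing is read from this range.

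**Figure D5:**
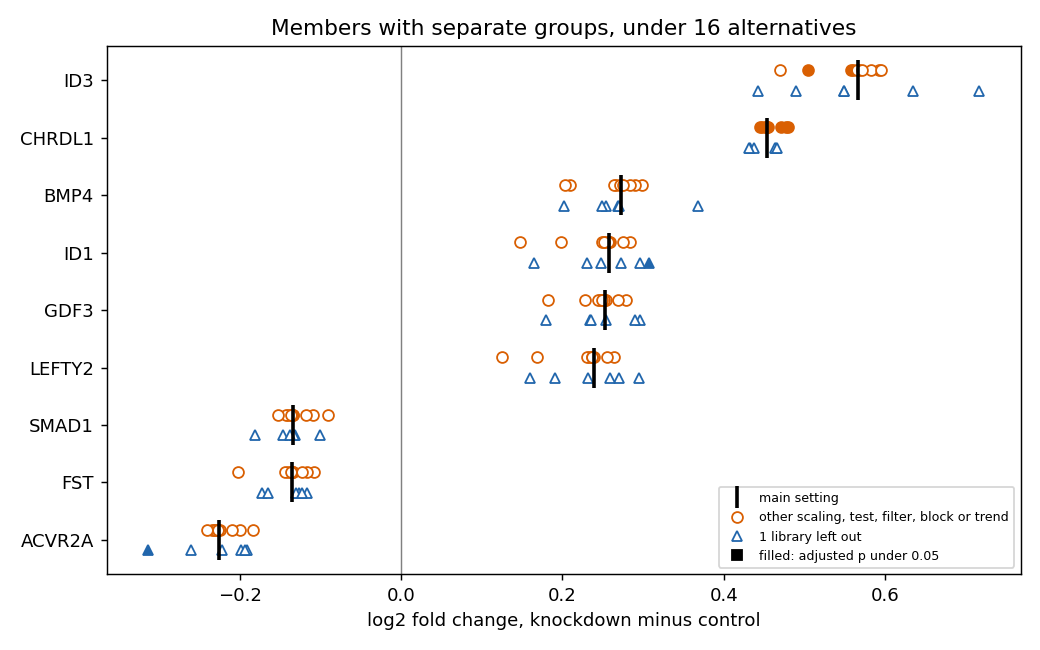
Log2 fold change (x axis) of the 9 members with separate groups under the main setting (black bar) and 16 alternatives. Circles are other scalings, tests, filters, the block or trends removed, and triangles are fits without 1 library. Filled symbols passed an adjusted p of 0.05. CHRDL1 passed in 12 of 16, and values of every member stayed on 1 side of 0.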

How the data were processed

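The authors deposited raw read counts per gene symbol, 1 column for each of the 6 libraries. The submitters' processing notes name Trimmomatic 0.39, STAR 2.7.8a, featureCounts and Subread 2.14.2, and build hg38. The annotation, the strand setting and the handling of multi-mapping reads are not given in the sources used here. Rows that overlap another gene can therefore share or lose reads.

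The members and gene lists were chosen with earlier results of these data known. All rows were fitted with edgeR 4.0.16 (R 4.3.3): filterByExpr at its defaults, TMM scaling, quasi-likelihood test, group as the only term, two-sided p-values adjusted by Benjamini-Hochberg over 19721 genes. Limma 3.58.1 (voom) and DESeq2 1.42.0 were alternatives. As a check of the code, the procedure was run on simulated counts with independent libraries and the same spread for every gene. These settings differ from the data, and nothing about the members is read from that run. Members given library by library were CHRDL1, those with separate groups and a mean count of at least 50, those with the highest and lowest log2 fold change, and the most abundant of each role. LEFTY1, as the copy of LEFTY2, and BMPR1B were added after their values were seen. From the other lists, called genes or the 3 smallest p-values were named. CER1, TDGF1P3, SMAD9, NANOG, GSC, LHX1, MIXL1, CXCR4, FOXA2 and the markers in the opening were also named after their values were seen. Spans, exon lengths and coordinates come from GENCODE 29 (GRCh38), which matched 44 members. Promoters come from RefSeq (GRCh38.p14). Span and GC trends were removed with natural splines of 5 degrees of freedom, over 15972 genes.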

Additional observations from a re-analysis of the deposited data

How the results depend on the processing

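The log2 fold change of CHRDL1 was above 0 in all 16 alternatives and past the threshold in 12. With any 1 library left out it ran from 0.43 to 0.47, and it missed the threshold without knockdown library b (0.44), control library a (0.43), control library b (0.46) or control library c (0.47). Where a library is left out, its group has only 2 libraries.

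The number of members called was 1. It was 2 with DESeq2's Wald test and 2 with the span trend removed (CHRDL1 and ID3 in both). Without a low-count filter it was 3 (CHRDL1, ID1 and ID3). With 1 library left out it was 0 to 5: 5 without knockdown library c (CHRDL1, ID1, ACVR2A, BMPR1A, BMPR1B) and 0 without knockdown library b or any of the controls. The share of all genes called was 0.786% in the main fit, 3.33% with DESeq2 and 3.29% without a low-count filter. That share was 1.48% with the span trend removed and 1.97% with the replicate block. It was 6.40% without knockdown library c and 0.127% to 0.321% without knockdown library b or any 1 control. The median over the members was 0.04 and became -0.000321 with the span trend removed. It ran from 0.006 to 0.06 when a library was left out. The other pathway genes called were 1, and 0 under library size alone, upper-quartile scaling and limma-voom, 3 with DESeq2, 5 without a low-count filter, 2 with the replicate block and 0 to 8 with 1 library left out (8 without knockdown library c). The target genes called were 0, and 0 to 1 with 1 library left out. The markers called were 0, 1 with DESeq2, 1 without a low-count filter and 0 to 3 with 1 library left out. For these changes, the cause was not tested.

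Over all genes, 155 passed, and 388 with the replicate block, 471 with DESeq2, 1064 without a low-count filter, 237 with either trend removed and 26 to 1309 with 1 library left out. The higher share of calls was 27 of 155 with TMM, 45 of 157 with upper-quartile scaling and 52 of 152 with library size alone. Libraries with the same letter were not treated as pairs, since the labels state no design. Their deviations from the group means correlated at -0.01, 0.14 and -0.01 (letters a, b and c). Libraries with different letters were not compared in this way, so whether the libraries were paired was not tested. The replicate block left 1 member called, CHRDL1.

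Genes with few counts, such as BMP2, INHBE, TGFB2, ID2 and ID4, had an SE of 0.15 to 0.27. The ID3 value of 0.57 with an SE of 0.14 was not called in the main fit. It passed in 3 of 16 alternatives: DESeq2's Wald test, no low-count filter and the span trend removed.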
